A study of Mus musculus with 17 samples.

Results

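Base excision repair removes single damaged or mispaired bases from DNA. A glycosylase cuts the base from its sugar, an endonuclease nicks the strand at the abasic site, and a polymerase fills the gap before a ligase seals it. In germinal centre (GC) B cells the same pathway meets the uracil that somatic hypermutation makes from cytosine in immunoglobulin genes. Described here are 10 genes of this pathway, chosen by name among the 21848 genes of the deposited matrices. They are the uracil and thymine glycosylases Ung, Smug1, Tdg and Mbd4, the oxidised-base glycosylases Neil1 and Neil3, the abasic-site endonucleases Apex1 and Apex2, the scaffold Xrcc1 and the gap-filling polymerase Polb. All 10 were found in the files, and all 10 passed the filter on low counts in the time course and in the sorted CDK2 populations.

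The cells were lymph node GC B cells profiled with 10x 5′ single-cell libraries, with hashtag antibodies marking each mouse. In the time course, CD45.1/1 recipients primed with OVA in alum received B1-8hi B cells, which carry an NP-binding receptor, and were then immunized in the footpad with NP-OVA. A DEC-205+ minority of the donor cells carried the tTA-H2B-mCherry division reporter and the rest were Ly75-/-. The paper describes the cells sequenced in this time course as DEC-205+ GC B cells. Treated mice were given anti-DEC-OVA, which brings antigen to DEC-205+ cells, on day 7. The groups were untreated mice of day 7 (n = 9), day 9 (n = 6) and day 10 (n = 8), and treated mice of day 9 (48 h after treatment, n = 9) and day 10 (72 h, n = 7). In the second experiment all 7 mice were treated and taken at 72 h, with B1-8hi cells that carried the DHB-tdTomato reporter of CDK2 activity at Rosa26. Image-based sorting split these cells by a cytoplasmic (CDK2hi) or nuclear (CDK2low) reporter. Each population was 1 library of the same 7 mice, so population and library cannot be told apart.

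After filtering, 23698 cells of the time course and 11833 cells of the CDK2 populations were summed per mouse, with 278 to 1679 cells and 1984426 to 20394909 UMIs (counted molecules) in a sum. A B1-8hi receptor pair was read in 9208 of 13625 and 4369 of 10073 cells of the 2 time-course libraries. In CDK2hi and CDK2low cells it was read in 4691 of 7448 and 2719 of 4385. On day 9 its share in these time-course libraries was 62.3% to 67.2% and 34.7% to 38.8% in untreated mice. In treated mice it was 70.5% to 77.7% and 53.1% to 58.0%. Levels are given as CPM, the UMIs of a gene over all UMIs of the mouse scaled to a fixed total. The summed level of 9 GC B cell markers was 3498 CPM or more in every mouse, and that of T cell markers was 40.03 CPM at most. The CDK2 libraries shared 6 cell barcodes, of which 5 were among kept cells, and the time-course libraries shared 94, of which 43 were kept. Cell-cycle phases were called without any base excision repair gene. G1 here names cells lacking S and G2M expression, a class the paper calls G0–G1. It can thus hold G0 cells, which were not told apart from G1 cells. The share of cells in G1 was 10.6% ± 2.53 (SD, n = 7) in CDK2hi and 79.9% ± 3.62 (SD, n = 7) in CDK2low cells. On day 9 it was 19.7% ± 3.30 (SD, n = 9) in treated and 50.5% ± 5.73 (SD, n = 6) in untreated mice.

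The coordinates of the genes are on GRCm39, the build of the files. Neil3 lies at chr8:54023531-54092100 on the minus strand, Smug1 at chr15:103061716-103078887 (minus) and Neil1 at chr9:57050072-57055707 (minus), and none of these overlaps another annotated gene. Ung, at chr5:114268417-114277384 (plus), is crossed by 2 antisense long non-coding genes, and Mbd4, at chr6:115817646-115830361 (minus), by 1. Tdg (chr10:82465610-82489654, plus), Apex1 (chr14:51162177-51164642, plus), Apex2 (chrX:149302515-149372864, minus), Xrcc1 (chr7:24245714-24272865, plus) and Polb (chr8:23117532-23143575, minus) overlap protein-coding genes of the other strand. Apex2 also overlaps the microRNA gene Mir3620 on its own strand. Whether reads were counted by strand is not given in the sources used here, so the values of these 7 genes may hold reads of their neighbours.

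The 250 bases before the start of Neil3 and Ung are shown because these were the members with the largest difference between S and G1 cells. They are RefSeq sequences of build GRCm38.p6, at chr8:53639066-53639315 (minus strand) and chr5:114130185-114130434 (plus strand), written 5′ to 3′ along the gene. Capitals mark GGGCGG, the letters of an Sp1 box, on either strand.
Neil3: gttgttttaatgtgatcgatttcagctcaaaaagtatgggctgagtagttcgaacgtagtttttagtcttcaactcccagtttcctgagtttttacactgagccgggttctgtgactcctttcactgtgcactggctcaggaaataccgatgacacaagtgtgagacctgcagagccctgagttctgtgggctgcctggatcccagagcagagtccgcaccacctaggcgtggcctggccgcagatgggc
Ung: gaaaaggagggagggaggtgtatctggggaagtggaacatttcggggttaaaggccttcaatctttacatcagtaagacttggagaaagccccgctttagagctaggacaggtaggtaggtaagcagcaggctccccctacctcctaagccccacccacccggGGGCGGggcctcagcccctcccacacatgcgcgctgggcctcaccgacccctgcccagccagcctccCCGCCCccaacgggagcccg

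Of the 10 genes, 8 had a promoter entry, all but Apex2 and Polb. On both strands of 32851 promoters of this length, GGGCGG was found in 32.7%, CCAAT in 33.8%, the E-box CACGTG in 6.02%, the CHR element TTTGAA in 16% and the E2F-like TTTNNCGC in 4.28%. Among the 8 members, GGGCGG was in 3 (Ung, Mbd4 and Apex1), CCAAT in 5 (Mbd4, Xrcc1, Tdg, Apex1 and Smug1) and CACGTG in 2 (Tdg and Apex1). The letters TTTGAA and TTTNNCGC were in 0 of the 8, Neil3 included. A match is a description of letters only.

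The first comparison asks how the genes differ between cells of high and low CDK2 activity in the same mice. Neil3, a glycosylase for oxidised bases that also acts on single-stranded DNA and on crosslinks at replication forks, was 9.21-fold higher in CDK2hi cells by mean CPM. Ung, Mbd4 and Tdg were higher by much less, and Smug1, a further uracil glycosylase, was lower. In all, 9 of the 10 genes passed an adjusted p of 0.05 (8 higher, 1 lower), beside 75.1% of the 10120 genes tested. The members' share is thus near that of other genes. Over all cells the median log2 fold change of the members was 0.25, beside -0.024 for all genes. In cells with a dark-zone score above their light-zone score, 6 of the 10 were called. Neil1 (-0.050), Xrcc1 (0.016), Apex2 (0.054) and Polb did not pass. The share of all genes called in that fit was not counted.

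These fits scaled libraries by TMM factors, which averaged 0.935 in CDK2hi and 1.07 in CDK2low sums. On plain library totals the median of all genes moved to -0.22 and the share of calls that were higher went from 48.6% to 29.3%. On that scale 4 members were higher, 4 lower and 2 not past the threshold, beside 2411 higher and 5822 lower of 10120 genes. Both scales are therefore given below. The light-zone marker sum also differed, with a median of 470 CPM (409 to 539) in CDK2hi and 944 CPM (852 to 1097) in CDK2low cells. The dark-zone marker sum had a median of 869 CPM (778 to 897) in CDK2hi and 971 CPM (875 to 1012) in CDK2low cells. The sum of naive or memory B cell markers was 85.2 to 158 CPM in CDK2hi and 302 to 448 CPM in CDK2low cells, and that of GC B cell markers 3552 to 3887 and 4646 to 5202 CPM. The part of these in the results was not tested.

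**Figure D1:**
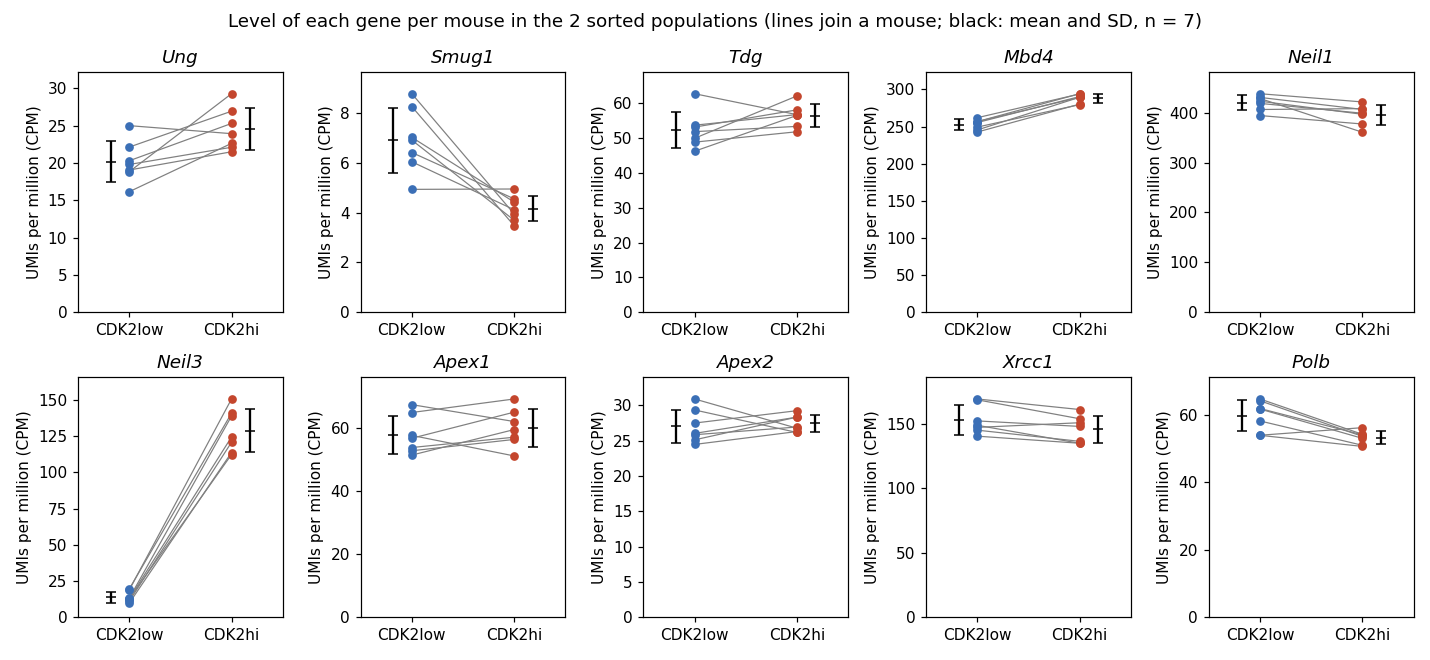
CPM (y axes, from 0) of each gene in CDK2low (blue) and CDK2hi (red) cells, with lines joining the sums of each of 7 mice and black marks for mean and SD. Neil3 and Mbd4 do not overlap between the populations (the share of all genes was not counted), and Smug1 is lower in CDK2hi cells of 6 of 7 mice.

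Neil3 was at 112, 141, 121, 114, 124, 151 and 139 CPM in CDK2hi cells of mice M1, M10, M3, M4, M5, M6 and M7. In CDK2low cells of these mice, in the same order, it was at 12.8, 19.5, 11.1, 9.78, 12.8, 18.8 and 13.1 CPM. All 7 mice were higher in CDK2hi cells, and the lowest CDK2hi value was far above the highest CDK2low value. How many of all genes were without overlap was not counted. On the log2 scale the difference was 3.40 ± 0.054 (SE, with an adjusted p = 6.22e-26 in edgeR's quasi-likelihood test with mouse as a block), and 3.20 on library totals. CDK2hi cells held fewer UMIs, with medians per cell of 8939 to 11754 over the mice, beside 10563 to 14838 in CDK2low cells. Values per cell therefore also hold this difference of depth between the libraries. Counted per cell, Neil3 was at 1.41 ± 0.0994 UMIs in CDK2hi and 0.185 ± 0.0411 UMIs in CDK2low cells (SD, n = 7). It was the member for which all 7 mice were also higher per cell.

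Ung, the main uracil glycosylase of the nucleus, was at 26.9, 23.9, 25.3, 29.3, 22.1, 21.5 and 22.6 CPM in CDK2hi cells of the same mice. In CDK2low cells it was at 22.1, 25.0, 20.3, 18.8, 19.8, 19.0 and 16.1 CPM. The populations overlapped, with 6 of 7 mice higher in CDK2hi cells and M10 lower. The log2 fold change was 0.45 ± 0.064 (SE; adjusted p = 7.45e-07, edgeR) and 0.25 on library totals (adjusted p = 0.00102). In dark-zone cells alone it was 0.95, and it passed in 17 of 17 alternatives. Per cell, 4 of 7 mice were higher, with means of 0.270 ± 0.0467 and 0.272 ± 0.0516 UMIs (SD, n = 7) in CDK2hi and CDK2low cells.

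Smug1 was at 4.56, 4.96, 3.95, 3.47, 4.12, 3.70 and 4.43 CPM in CDK2hi cells. In CDK2low cells it was at 6.43, 4.94, 8.79, 8.27, 6.05, 6.92 and 7.03 CPM. It was lower in CDK2hi cells of 6 mice and nearly equal in M10. The log2 fold change was -0.45 ± 0.13 (SE; adjusted p = 0.00275, edgeR) and -0.64 on library totals. These sums held only 19 to 93 UMIs, and in cells with the B1-8hi receptor alone the value was -0.34 (adjusted p = 0.0524, edgeR).

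Mbd4, which removes thymine and uracil paired with guanine, was at 279, 289 and 294 CPM (lowest, median and highest) in CDK2hi and at 243, 255 and 262 CPM in CDK2low cells. The populations did not overlap (the share of all genes was not counted) and 7 of 7 mice were higher in CDK2hi cells. By mean CPM this was 1.14-fold. With TMM the log2 fold change was 0.39 ± 0.023 (SE, adjusted p = 7.97e-14, edgeR) and 0.19 on library totals. Per cell, where the lower depth of CDK2hi cells also enters, 1 of 7 mice was higher. Tdg, which excises thymine from G:T mispairs and acts in DNA demethylation, was at 51.9, 56.8 and 62.2 CPM in CDK2hi and at 46.3, 51.9 and 62.8 CPM in CDK2low cells. It was higher in 6 of 7 mice, M3 being lower, with a log2 fold change of 0.31 ± 0.045 (SE; adjusted p = 1.26e-06, edgeR) and 0.11 on library totals. Per cell, 1 of 7 mice was higher for Tdg too.

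For the endonucleases the call depended on the scale. Apex1, the main enzyme that nicks abasic sites, was at 51.1, 59.4 and 69.1 CPM in CDK2hi and at 51.3, 56.7 and 67.3 CPM in CDK2low cells, nearly the same range. Its log2 fold change of 0.26 ± 0.042 (SE) passed the test, whereas 0.064 on library totals did not (adjusted p = 0.166, edgeR). It passed in the other 16 of 17 alternatives, from 0.13 in B1-8hi cells to 0.80 in dark-zone cells alone. Apex2, its weaker relative, had 0.23 ± 0.054 (SE) and, on library totals, 0.034 (adjusted p = 0.561, edgeR).

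For 3 further genes the sign depended on the scale. Neil1, which removes oxidised pyrimidines, was at 361, 399 and 422 CPM in CDK2hi and at 394, 423 and 438 CPM in CDK2low cells. Its log2 fold change was 0.10 ± 0.025 (SE; adjusted p = 6.85e-04, edgeR) with TMM and -0.092 on library totals (adjusted p = 0.00216). Xrcc1, which holds polymerase and ligase at the nick, went from 0.12 ± 0.028 (SE) to -0.072, both past the threshold. Polb was at 0.024 ± 0.040 (SE; adjusted p = 0.589, edgeR) with TMM and at -0.17 on library totals (adjusted p = 3.73e-04). No direction is given for these 3 genes.

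**Figure D2:**
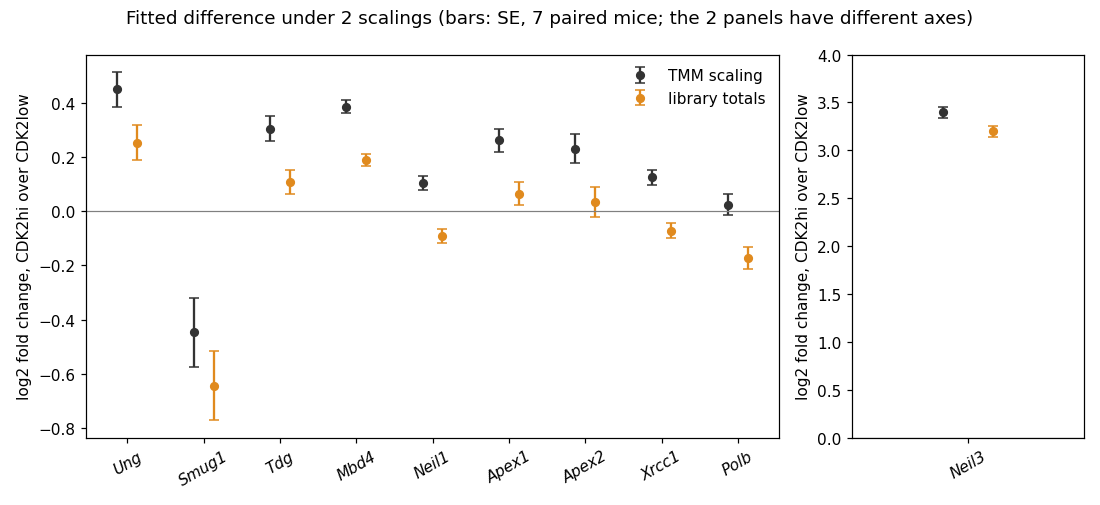
Log2 fold change of CDK2hi over CDK2low cells (y axis) for each gene with SE bars (7 paired mice), under TMM scaling (black) and library totals (orange). All genes are lower by a similar amount on library totals, and Neil1, Xrcc1 and Polb cross 0.

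Since the populations differ in phase, the genes were next followed over the cell cycle. Over both populations, 7 of 10 genes differed between S and G1 cells (4 higher, 3 lower), beside 60.9% of all genes. Between G2M and G1 cells 6 of 10 differed (4 higher, 2 lower), beside 54.7%. On library totals the share of all calls that were higher went from 49.9% to 39.9% for S and to 39% for G2M cells. The members called were the same in number and direction. Of 9372 genes, 2396 were then higher and 3606 lower for S, and 2066 and 3236 for G2M cells. Phases are ranges cut from a score, with 4.07% of cells near the cut.

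Ung peaked sharply in S cells. In CDK2hi cells it was at 13.8 ± 5.02 CPM in G1, 51.7 ± 1.99 CPM in S and 4.55 ± 1.05 CPM in G2M (SD, n = 7). In CDK2low cells it was at 8.77 ± 2.03 CPM in G1 and 60.8 ± 7.60 CPM in S (SD, n = 7), and at 2.77 ± 2.64 CPM in G2M (SD, n = 5), the last from 9 UMIs in all. The log2 fold change was 2.68 ± 0.10 (SE) for S and -0.94 ± 0.17 (SE) for G2M, each against G1 cells.

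Neil3 was nearly absent from G1 cells, with 32 UMIs over 7 mice in CDK2hi and 46 UMIs over 7 mice in CDK2low cells. It was higher by 5.09 ± 0.16 (SE, log2) in S and by 5.72 ± 0.16 (SE, log2) in G2M cells. These folds rest on the few UMIs of G1 cells, so their size is uncertain. Apex1 had the same order as Ung at a smaller size, with 0.72 ± 0.068 (SE, log2) in S and -0.34 ± 0.085 (SE, log2) in G2M cells. Apex2 was higher in S cells (0.31 ± 0.077, SE). Mbd4 (0.44 ± 0.053, SE), Neil1 (0.24 ± 0.044, SE) and Xrcc1 (0.21 ± 0.053, SE) were higher in G2M cells. Smug1 (-0.59 ± 0.16, SE), Polb (-0.14 ± 0.056, SE) and Neil1 (-0.11 ± 0.041, SE) were lower in S cells. The Polb call was lost without M1, M10 or M6 (adjusted p of 0.0766, 0.0702 and 0.0966) and with thinned cells, and the Neil1 call without M10 (0.0542, edgeR).

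Within a phase, fewer members differed between the populations: 3 of 9 in G1 cells, beside 41.5% of all genes, 4 of 10 in S cells, beside 49.8%, and 3 of 10 in G2M cells, beside 24.2%. The G2M sums of CDK2low cells came from the 5 mice with at least 10 such cells. On library totals 1 member was called in G1 cells, 4 in S and 2 in G2M cells, but those in S cells were not the same: Neil3 was higher, and Ung (-0.28), Xrcc1 (-0.15) and Polb (-0.20) were lower. Of all genes on that scale, 1385 were higher and 2650 lower of 8864 in G1 cells. In S cells these were 1361 and 3801 of 9072, and in G2M cells 826 and 1709 of 8916. The share of all calls that were higher went from 52.1% to 34.3% in G1, from 47.3% to 26.4% in S and from 60.5% to 32.6% in G2M cells.

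Neil3 differed within phases as well. In S cells it was at 99.9 ± 7.43 CPM in CDK2hi and 51.2 ± 10.6 CPM in CDK2low cells (SD, n = 7), without overlap (not counted for all genes). This was a log2 fold change of 1.11 ± 0.068 (SE, adjusted p = 3.29e-17, edgeR) and 0.97 on library totals. In G2M cells it was at 169.7 ± 19.8 (SD, n = 7) and 52.1 ± 14.4 CPM (SD, n = 5), also without overlap, with a log2 fold change of 1.94 ± 0.12 (SE; adjusted p = 7.86e-14, edgeR) and 1.81 on library totals. In G1 cells it was too low for the test, at 4.76 ± 3.14 and 0.999 ± 0.331 CPM (SD, n = 7). Cell cycle genes also differed between the populations within the same phase calls. In S cells Cdk1 was higher in CDK2hi cells by 1.45, Ccnb1 by 1.53, Mki67 by 0.99 and Top2a by 0.98 (log2). Ccne2 (0.79) and Mcm5 (0.14) were higher there too, while Mcm2 (-0.059) and Ccnd3 (-0.012) did not pass. In G2M cells Cdk1 was higher by 1.82, Top2a by 1.90, Mcm5 by 0.83, Mki67 by 0.76 and Ccne2 by 0.57. Ccnd3 was lower there (-0.25), and Mcm2 (0.33) and Ccnb1 (-0.10) did not pass. The part of these genes in the Neil3 difference was not tested.

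Ung had no single direction within phases. It was higher in CDK2hi G1 cells, by 0.65 ± 0.20 (SE; adjusted p = 0.00663, edgeR) and 0.54 on library totals, but without M3 the adjusted p was 0.0545. Cell cycle genes were also higher in these CDK2hi G1 cells, Mcm2 by 0.64, Mcm5 by 0.65 and Ccne2 by 1.33 (log2). So were Ccnb1 by 1.58, Cdk1 by 1.42, Top2a by 1.05 and Mki67 by 0.92, while Ccnd3 was lower (-0.13). The part of these genes, or of G0 cells within the G1 class, in the Ung difference was not tested. In S cells it was at -0.15 ± 0.071 (SE; adjusted p = 0.0825, edgeR), and on library totals at -0.28, which passed the test (adjusted p = 9.46e-04).

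The other calls within phases were small. Tdg was called higher in CDK2hi G1 (0.29 ± 0.091, SE) and S cells (0.28 ± 0.075, SE), and Mbd4 in S (0.14 ± 0.042, SE) and G2M cells (0.32 ± 0.085, SE), but none of these passed on library totals. With cells thinned to equal depth, Tdg in S cells was at 0.080 (adjusted p = 0.648, edgeR). Apex1 was called higher in G1 cells (0.27 ± 0.097, SE), but not without M10 or M5 (adjusted p of 0.0782 and 0.239, edgeR) or on library totals. The Mbd4 call in G2M cells was lost without M1 (adjusted p = 0.148, edgeR). Neil1 in S cells was at 0.10 ± 0.041 (SE; adjusted p = 0.0406, edgeR) with TMM and at -0.035 on library totals, and the call was lost without M1, M10, M4 or M6 and with thinned cells. In G2M cells Neil1 was lower in CDK2hi cells on both scales, at -0.27 ± 0.072 (SE; adjusted p = 0.00691, edgeR) and -0.40, but with thinned cells it was at -0.23 and did not pass (adjusted p = 0.128, edgeR).

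**Figure D3:**
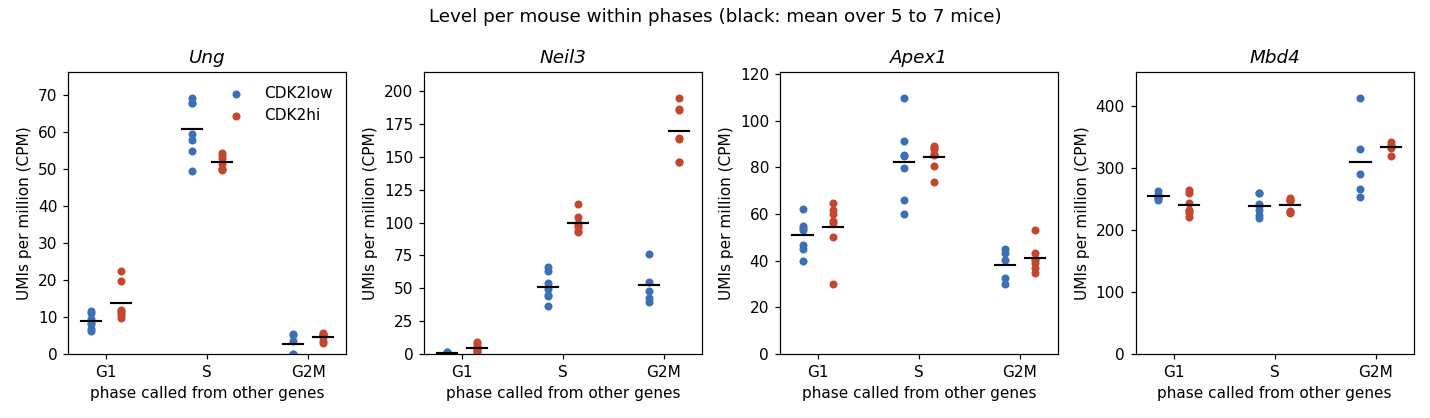
CPM (y axes, from 0) of Ung, Neil3, Apex1 and Mbd4 per mouse within G1, S and G2M cells of the CDK2low (blue) and CDK2hi (red) populations, with black lines for means. Ung peaks in S cells of both populations, whereas Neil3 is near 0 in G1 cells and highest in CDK2hi G2M cells.

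The time course asks how the genes moved after anti-DEC-OVA. At 48 h, 7 of 10 genes were higher in treated than in untreated mice and 0 were lower. Of the 10220 genes tested, 26.3% were called higher and 21.1% lower, 47.4% in all. The median log2 fold change was 0.21 over the members and 0.011 over all genes. On library totals 4 members were higher (Apex1, Tdg, Neil1 and Mbd4) and 0 lower, beside 1888 higher and 3079 lower of the 10220 genes. The share of all calls that were higher went from 55.4% to 38%. The G1 share given above differed between these groups, as did the light-zone marker sum, at 334 to 466 CPM in treated and 717 to 839 CPM in untreated mice. Naive or memory B cell markers summed to 83.5 to 173 CPM in treated and 216 to 339 CPM in untreated mice, and plasma cell markers to 1190 to 1999 and 774 to 1510 CPM. GC B cell markers summed to 3498 to 4496 CPM in treated and 4399 to 5417 CPM in untreated mice. The part of these marker sums was not tested, and values by phase follow.

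Treated cells also held more UMIs, with medians per cell of 10004 to 14467 in treated and 5030 to 7455 in untreated mice of day 9. Per cell, the mean of all 10 genes was therefore higher in treated mice, also for those not past the threshold in CPM: Polb was at 0.759 ± 0.0986 UMIs per cell in treated (SD, n = 9) and 0.447 ± 0.0859 in untreated mice (SD, n = 6). The fold changes here are relative to all UMIs of a mouse.

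Apex1 had the largest log2 fold change at 48 h in the TMM fit of all cells, and passed in 13 of 13 alternatives. It was at 79.1, 94.2 and 108 CPM (lowest, median and highest) in treated and at 64.3, 69.4 and 99.2 CPM in untreated mice. The groups overlapped through untreated mouse M10 alone, and the other 5 untreated mice lay below all treated mice. The log2 fold change was 0.41 ± 0.11 (SE, adjusted p = 0.00157, edgeR) and 0.33 on library totals.

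Among the glycosylases, Ung was at 24.3, 27.7 and 31.1 CPM in treated and at 18.7, 21.7 and 32.8 CPM in untreated mice. The groups overlapped, and the log2 fold change was 0.34 ± 0.12 (SE; adjusted p = 0.0177, edgeR). It passed in 8 of 13 alternatives. It did not pass on library totals (0.26), in B1-8hi cells alone (0.14, adjusted p = 0.396), in the larger pool alone (0.22), in the smaller pool alone (0.48) or without the pool as a term (0.33, adjusted p = 0.109), and was 0.63 with cells thinned to equal depth. Tdg was at 54.1, 60.8 and 70.5 CPM in treated and at 48.1, 54.6 and 56.6 CPM in untreated mice, with a log2 fold change of 0.27 ± 0.061 (SE; adjusted p = 3.83e-04, edgeR). Mbd4 was at 212, 240 and 286 CPM in treated and at 189, 208 and 276 CPM in untreated mice, with a log2 fold change of 0.20 ± 0.051 (SE; adjusted p = 0.00142, edgeR). Tdg and Mbd4 each passed in 12 of 13 alternatives. Over both pools the groups overlapped for Ung, Tdg and Mbd4. Ung and Tdg did not overlap within the smaller pool, which held only 3 treated and 2 untreated mice. Mbd4 did not overlap within the larger. The share of all genes without overlap was not counted.

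The oxidised-base glycosylases differed between the pools. Neil1 in the larger pool was at 437 ± 10.1 CPM in treated (SD, n = 6) and 390 ± 23.1 CPM in untreated mice (SD, n = 4). In the smaller pool it was at 351 ± 8.41 CPM (SD, n = 3) and 306 ± 9.77 CPM (SD, n = 2). Treated mice were thus higher in each pool, and the log2 fold change was 0.25 ± 0.041 (SE; adjusted p = 3.39e-06, edgeR). Neil1 passed in 12 of 13 alternatives. Neil3 in the larger pool was at 75.1 ± 4.48 CPM in treated (SD, n = 6) and 60.9 ± 4.996 CPM in untreated mice (SD, n = 4). In the smaller pool it was at 89.0 ± 6.90 CPM (SD, n = 3) and 97.1 ± 10.4 CPM (SD, n = 2), the other way round. The log2 fold change was 0.22 ± 0.090 over both pools (SE; adjusted p = 0.0370, edgeR), 0.33 in the larger pool and -0.051 in the smaller, and on library totals the pooled value of 0.15 did not pass. In all, it passed in 4 of 13 alternatives. Xrcc1 was at 0.15 ± 0.049 (SE, adjusted p = 0.0107, edgeR) and passed in 8 of 13 alternatives, with 0.070 in the smaller pool and 0.076 on library totals among those that did not pass. Smug1 (-0.077 ± 0.17, SE) and Apex2 (-0.0064 ± 0.068, SE) did not pass, nor did Polb, with medians of 49.8 CPM in treated and 51.9 CPM in untreated mice.

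Within phases the 48 h difference was called for fewer genes. In G1 cells 0 of 8 tested genes were called (edgeR), beside 8.38% of all genes, and 0 had an unadjusted p under 0.05. In S cells 1 of 9 was called, beside 13% of all genes, namely Neil1 (0.31 ± 0.059, SE, adjusted p = 1.62e-04, edgeR). In G2M cells 3 of 10 were called, beside 17.5%. Ung there was at 7.41 ± 1.63 CPM in treated (SD, n = 9) and 3.69 ± 0.662 CPM in untreated mice (SD, n = 6), a log2 fold change of 1.02 ± 0.30 (SE, adjusted p = 0.0133, edgeR). Mcm2 (0.45, adjusted p = 1.76e-04, edgeR) and Mcm5 (0.31, adjusted p = 0.00389, edgeR) were also higher in these treated G2M cells. Ccnd3 was higher too (0.26), while Ccne2, Mki67, Cdk1, Top2a and Ccnb1 did not pass. The part of these genes was not tested. Apex1 was higher by 0.38 ± 0.13 (SE), and Neil3 was lower, at -0.29 ± 0.079 (SE). On library totals these 4 calls kept their direction and passed. Of all genes, 406 were then higher and 750 lower of 9132 in S, and 618 and 1008 of 9191 in G2M cells. The share of all calls that were higher went from 48.9% to 35.1% in S and from 49.1% to 38% in G2M cells. Without the pool as a term, however, 0 members were called in S and 0 in G2M cells. How many of all genes were called without this term was not counted.

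At 72 h, 1 of 10 genes was called, beside 8.55% of all genes. Mbd4 was at 214, 254 and 273 CPM in treated and at 168, 203 and 239 CPM in untreated mice of day 10. The groups overlapped over both pools but not within either (not counted for all genes). They were at 214 to 262 and 168 to 209 CPM in the larger pool and 254 to 273 and 224 to 239 CPM in the smaller. Its log2 fold change was 0.27 ± 0.052 (SE, adjusted p = 4.36e-04, edgeR), but with thinned cells it was 0.18 (adjusted p = 0.0632) and in the smaller pool alone 0.14 (adjusted p = 0.617). Ung (-0.27 ± 0.14, SE) and Apex1 (-0.15 ± 0.12, SE) did not pass.

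Treated mice at 48 h were higher than treated mice at 72 h for 6 of 10 genes and lower for 0. Of all genes, 26.8% were called higher and 22.3% lower, 49.1% in all. Ung (0.63 ± 0.12, SE), Apex1 (0.56 ± 0.11, SE) and Xrcc1 (0.25 ± 0.049, SE) were the largest of the 6. The G1 share of treated mice was 19.7% ± 3.30 (SD, n = 9) at 48 h and 45.6% ± 8.46 (SD, n = 7) at 72 h. Light-zone markers summed to 334 to 466 CPM at 48 h and 596 to 784 CPM at 72 h, naive or memory B cell markers to 83.5 to 173 and 179 to 299 CPM, and plasma cell markers to 1190 to 1999 and 893 to 1245 CPM. GC B cell markers summed to 3498 to 4496 CPM at 48 h and 4314 to 5853 CPM at 72 h. Their part in the result was not tested. Ung, Apex1 and Xrcc1 also passed on library totals, where Polb (-0.21) and Apex2 (-0.19) were called lower. Of 10220 genes, 1832 were higher and 3514 lower on that scale. The share of all calls that were higher went from 54.6% to 34.3%. The treatment effect itself differed between 48 h and 72 h for 5 of 10 genes, beside 31.5% of all genes. It was larger at 48 h for Ung (0.60 ± 0.18, SE), Apex1 (0.56 ± 0.16, SE), Neil3 (0.43 ± 0.13, SE), Xrcc1 (0.24 ± 0.071, SE) and Neil1 (0.17 ± 0.058, SE). On library totals Ung, Apex1 and Neil3 passed, Xrcc1 and Neil1 did not, and Polb was called at -0.24. There 1258 of 10220 genes were higher and 2087 lower, and the share of all calls that were higher went from 58.7% to 37.6%.

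Without treatment the genes moved little. From day 7 to day 9, 0 of 10 were called by edgeR, beside 0.127% of all genes, with 1 (Neil1) at an unadjusted p under 0.05 and 0 called by DESeq2. From day 7 to day 10, 1 of 10 was called, beside 4.41% of all genes: Mbd4 was lower, at -0.20 ± 0.049 (SE, adjusted p = 0.00866, edgeR). On library totals it was at -0.19 and still called, while the share of all calls that were higher went from 40.6% to 51.8%. Mbd4 passed in 10 of 13 alternatives, but not with thinned cells, without the pool as a term or in the smaller pool alone.

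**Figure D4:**
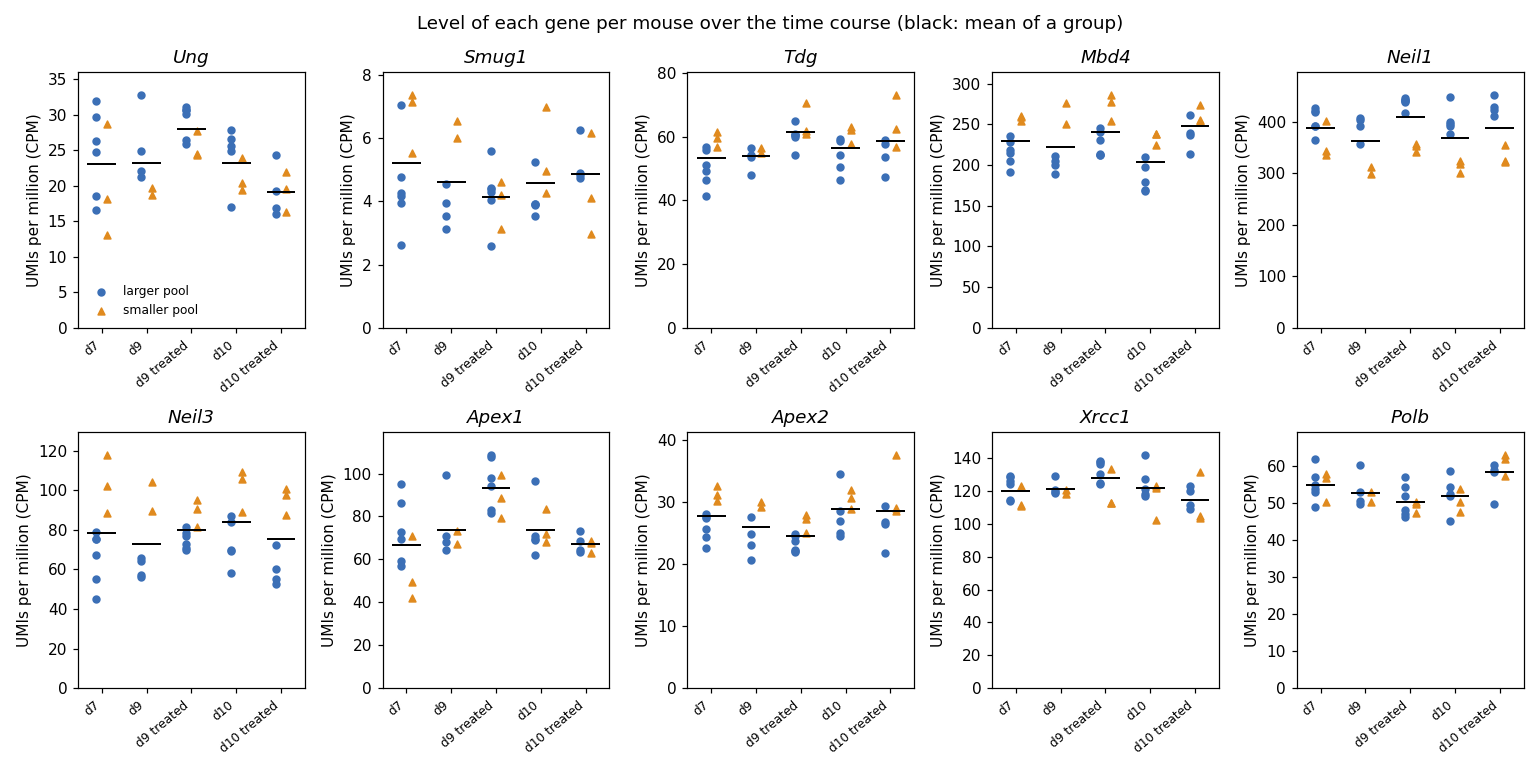
CPM (y axes, from 0) of each gene per mouse in the 5 groups of the time course, by pool (larger and smaller), with black lines for group means. Apex1 and Ung have their highest means in treated mice of day 9, and Neil1 and Neil3 lie at different levels in the 2 pools.

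The other base excision repair genes were described as a list of 26, of which 25 were tested. Between the CDK2 populations 17 were higher and 4 lower in CDK2hi cells, with a median log2 fold change of 0.59, so 21 of 25 were called beside 75.1% of all genes. On library totals 15 were higher and 6 lower, with a median of 0.39, beside 2411 higher and 5822 lower of 10120 genes. The 8 largest were Hmgb1 (1.52), a chromatin protein, the flap nuclease Fen1 (1.43), the ligase Lig1 (1.44), the sliding clamp Pcna (1.39), the polymerase subunits Pold2 (1.37), Pole (1.31) and Pole3 (1.05), and Mutyh (1.03), a glycosylase for adenine paired with oxidised guanine. Fen1, Lig1, Pcna and the polymerase subunits also serve DNA replication. At 48 h, 16 of the 25 were higher and 4 lower in treated mice, beside 47.4% of all genes called. On library totals 12 were higher and 4 lower, beside 1888 higher and 3079 lower of 10220 genes.

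Over the 39 mice of the time course, centred within pool, each member was compared with 4965 expressed genes. Neil3 was most like Diaph3 (Pearson r = 0.869), Foxm1 (0.824) and Cit (0.819). Ung was most like Trim28 (0.808), Rnaseh2a (0.802) and Tfdp1 (0.794). Apex1 was most like Ppp1r14b (0.956), Cct6a (0.951) and Lyar (0.950). The nearest gene was Ddx19a for Tdg (0.827), Gnas for Mbd4 (0.839), Cmpk1 for Neil1 (0.851) and Xrcc6 for Xrcc1 (0.805). Smug1 (0.546, Zmat5), Apex2 (0.574, Pias1) and Polb (0.585, Safb2) had no gene as near. Between members, Ung and Apex1 were nearest (0.679) and Xrcc1 and Smug1 had the lowest value (-0.400). The mice share groups and libraries, so these values are descriptions.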

How the data were processed

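The deposited files hold raw UMI counts per gene and cell. Their headers name Cell Ranger 8.0.1, while the submitters' processing notes name Cell Ranger 6.0.1, Seurat 5.1.0 and build mm39. Mice and their groups came from the authors' list of hashtags, and cells were assigned with HTODemux (Seurat 5.3.0, quantile 0.99). In each CDK2 pool 2 of 9 listed mice had almost no hashtag UMIs and gave no cells, and cells with 1 unlisted hashtag were not assigned. Barcodes positive for more hashtags than one mouse carries were dropped, and no doublet search was made within a mouse. Cells with under 200 genes or over 10% mitochondrial UMIs were removed, the latter being 3114 cells of the smaller time-course pool. Phases came from CellCycleScoring with 39 S and 54 G2M genes.

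The mouse was the replicate. Its summed UMIs were fitted using edgeR 4.0.16 under R 4.3.3, by the quasi-likelihood test after filterByExpr and TMM scaling, with Benjamini-Hochberg adjustment over all genes and a threshold of 0.05. One model held the 39 time-course mice with pool as a term. The CDK2 model had mouse as a block, since the list names the same mice in both populations, and deviations of a mouse's populations correlated at 0.114 to 0.418, highest with its own in 7 of 7. Sums by phase needed 10 cells. The SE is the log2 fold change over the root of F. CPM uses all UMIs of a mouse without TMM factors. Overlap of groups was read from CPM, and the share of all genes without overlap was not counted in any comparison. On data simulated for the CDK2 comparison (10088 genes), 100% of log2 changes of 1 and 91.8% of those of 0.5 were recovered. For the 48 h comparison (10128 genes) these were 98% and 92%, and 81.6% for -0.5. Few genes were changed, equally in both directions, and the simulated means held no mouse or pool effects. The simulations therefore cannot show what the scaling does to the real data. Changes smaller than 0.5, the size of most members' differences, were not simulated.

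Named genes were all members, the 8 largest other base excision repair genes past the threshold with a log2 fold change of at least 0.5, and the genes most correlated with each member among those averaging at least 5 in log2 CPM. Members and lists were chosen with earlier results of these data known. Alternatives were DESeq2 1.42.0, RLE scaling, library totals, no filters, another hashtag rule, B1-8hi or dark-zone cells, thinned cells, single pools, other model terms and left-out mice.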

Additional observations from a re-analysis of the deposited data

Results flagged for a closer look

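Of 80 sets of mice examined by Dixon's criterion, 6 held a value apart from the others, and chance alone marks about 1 in 20. Among untreated mice of day 9, M10 stood above the rest for Apex1 (99.2 CPM, the others 64.3 to 73.3), Xrcc1 (129 CPM, the others 118 to 120) and Polb (60.3 CPM, the others 49.7 to 53.1). In the same group M07 was below the rest for Tdg (48.1 CPM, the others 53.7 to 56.6). Among treated mice of day 10, M23 was below the rest for Polb (49.7 CPM, the others 57.4 to 62.9). Between the CDK2 populations, M5 had a log2 ratio of Neil1 CPM of -0.25, where the other mice had -0.092 to 0.0063.

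The treatment effect differed between 48 h and 72 h, by the interaction term of the edgeR fit, for Ung (0.60), Apex1 (0.56), Neil3 (0.43), Xrcc1 (0.24) and Neil1 (0.17), each as the log2 effect at 48 h minus that at 72 h. On library totals Xrcc1 and Neil1 did not pass. Without the pool as a term 1 member was called, and in the smaller pool alone 0 were.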

How the results depend on the processing

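Library totals in place of TMM, chosen after seeing the data, turned Xrcc1 (-0.072), Polb (-0.17) and Neil1 (-0.092) between the CDK2 populations and Neil1 in S cells (-0.035), and left 4 members called at 48 h and 1 between the populations in G1 cells. Dark-zone cells alone turned Neil1 (-0.050) and left 6 members called between the populations. The smaller pool alone turned Neil3 at 48 h (-0.051) and from 48 h to 72 h (-0.018). It left 2 members called at 48 h, 2 from 48 h to 72 h, and 0 at 72 h, from day 7 to day 10 and for the difference of effects, where 1, 2 and 2 had an unadjusted p under 0.05. The larger pool alone left 2, and B1-8hi cells 3, for the difference of effects. Thinned cells left 0 at 72 h and 0 from day 7 to day 10 (1 unadjusted in each), 3 from 48 h to 72 h, 3 for the difference of effects and 2 between the populations in S cells. Without the pool term 3 were called at 48 h, 1 for the difference of effects, and 0 from day 7 to day 10, at 48 h in S cells and at 48 h in G2M cells (1, 1 and 3 unadjusted). The causes were not tested. Except on library totals, the share of all genes called was not counted for the settings in this section. Whether other genes lost calls alike is therefore not known. Leaving out each mouse gave 9 members between the populations, 2 to 3 in G1, 3 to 5 in S and 2 to 3 in G2M cells, 5 to 7 for S and 6 for G2M against G1. Without the replicate block 9 members were called between the populations, 2 in G1 and 3 in S and in G2M cells, where Apex1 in G1 (adjusted p = 0.0519) and Neil1 in S cells (adjusted p = 0.129, edgeR) lost their calls. Without untreated day 7 mouse M06, left out after seeing the data for its G1 share (68.3%), Neil3 at 48 h had an adjusted p of 0.0512 (edgeR). Low counts limit Smug1, and Ung and Neil3 within phases.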
